A study of Mus musculus with 4 samples.

Results

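The sites described here are the N6-methyladenosine (m6A) positions listed under 10 genes for heterogeneous nuclear ribonucleoproteins (hnRNPs): Hnrnpa0, Hnrnpa1, Hnrnpa2b1, Hnrnpa3, Hnrnpab, Hnrnpc, Hnrnpd, Hnrnpk, Hnrnpl and Hnrnpu. Hnrnpa1 was chosen by the level of 1 of its sites, already seen to be lower in the dTAG13 libraries, and the other 9 genes by family name. Every listed position carrying 1 of these gene names was taken, which gave 1672 of the 1076788 positions listed in any library, and 10 of the 20001 gene names. The fall at the Hnrnpa1 site is therefore given as a description, and no p-value is given for it.

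The material was polyA RNA of day 6 mouse retinal organoids, small aggregates of stem cells guided towards retinal progenitors. All 4 libraries came from an Rx:GFP reporter line in which FKBP12F36V-HA, a tag that dTAG13 can target for degradation, was joined to the C-terminus of the endogenous Mettl3 protein. The 2 untreated libraries received no dTAG13, and the 2 dTAG13 libraries were treated with 125 nM for 8 h before a common harvest. The genotype labels of the 4 samples number the tagged gene Mettl3, Mettl4, Mettl5 and Mettl6, while the design text names METTL3 for all; the line was taken as the Mettl3 line throughout, and neither the loss of the protein nor the tag was measured here. Whether the line is 1 clone, and whether the 2 libraries of a group came from separate cultures, is not stated, so every p-value below measures only the spread between these libraries, which may be technical.

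METTL3 is the catalytic subunit of the complex that deposits m6A on nascent mRNA. The hnRNPs are abundant nuclear proteins that coat pre-mRNA, most of them through RNA-recognition or KH domains, and act in splicing, export, stability and translation. They also meet m6A as readers: HNRNPA2B1 has been proposed to act at methylated transcripts, and HNRNPC reaches its U-rich sites more readily where a nearby m6A opens the RNA structure. Several of these genes, Hnrnpa1 above all, have left processed copies elsewhere in the mouse genome.

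The libraries were made with GLORI, in which glyoxal and nitrite turn unmethylated A into inosine, read as G, while m6A is still read as A. The level of a position is the percentage of A in the sum of A and G reads there. A table lists a position only where it held at least 15 such reads, 5 A reads and a level of 10%, so a position that is not listed may be unmethylated, below these limits or too thinly covered. The libraries listed between 220034 and 350462 positions, with a median of 75 to 91 reads each. Of the markers of retinal progenitors, 8 of 8 were listed in all 4 libraries, and so were 5 of 5 markers of pluripotent stem cells and 2 of 2 of forebrain. Of 3 neuronal and 3 mesoderm and endoderm markers, 1 each was listed in all 4, and Tbx6 in none. Summed gene coverage of the retinal markers ran to 3707 and 4141 without dTAG13, against 2527 and 3956 after it, and that of the pluripotency markers to 917.7 and 937.5, against 658.5 and 865.5. The part of cell makeup in the differences below was not tested.

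Each dTAG13 library listed more hnRNP sites than either untreated library. Untreated libraries 1 and 2 listed 474 and 460 hnRNP sites, and dTAG13 libraries 1 and 2 listed 509 and 491. The means were 467 ± 9.90 and 500 ± 12.7 (SD, n = 2 each), a ratio of 1.07 (two-sided exact permutation test, p = 0.333, the smallest p that 2 against 2 libraries allow). For the 12520 genes that every library lists the same ratio was 0.719, and over 20 other hnRNP-type genes, among them Hnrnpm, Ptbp1 and Pcbp2, it was 0.859. Per gene, both dTAG13 libraries listed more sites than both untreated ones for Hnrnpa3, Hnrnpk, Hnrnpl and Hnrnpu, 4 of 10, against 4.53% of all genes. Both listed fewer for Hnrnpa0 and Hnrnpd, 2 of 10, against 44.6% of all genes. The number of listed sites for the remaining 4 genes overlapped between the groups. The genes compared were not matched for depth. Among positions listed in 1 library only, the median was 190 reads for the hnRNP genes against 90 for all genes. The part of depth in these differences was not tested.

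**Figure D1:**
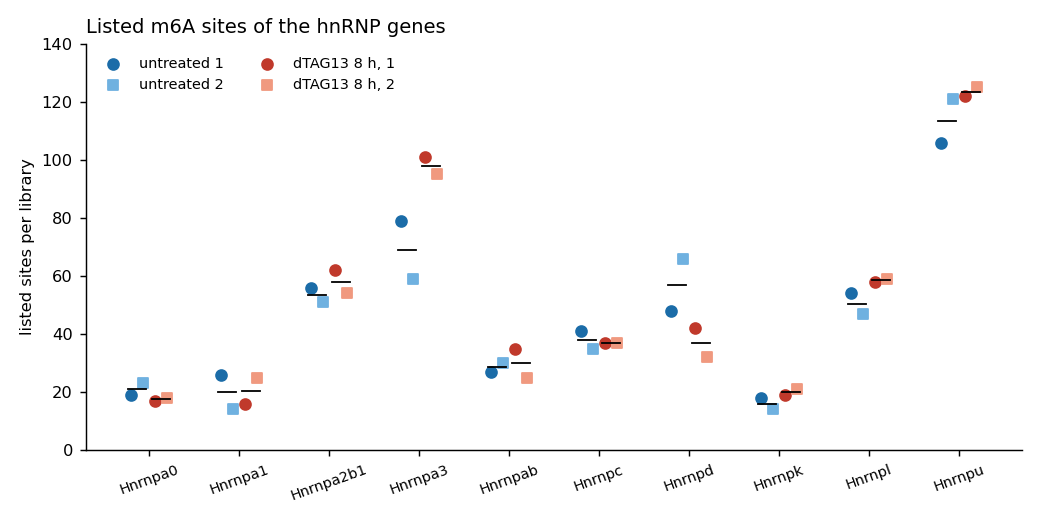
Number of listed m6A sites (vertical axis) of each of the 10 hnRNP genes (horizontal axis) in the 2 untreated (blue) and 2 dTAG13 libraries (red), with the group mean as a line. Hnrnpa3 has 79 and 59 sites in blue and 101 and 95 in red, and Hnrnpd 48 and 66 in blue and 42 and 32 in red.

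Few of the positions recurred, in the hnRNP genes as in all genes. Of the 1672 positions, 1455 (87.0%) were listed in 1 library only, 181 in 2, 27 in 3 and 9 in all 4. The share in 1 library only was 88.5% over the 20 other hnRNP-type genes. Over all genes, 761001 positions were listed in 1 library only, 64757 in 2 and 7285 in 3 or 4. Of the 181 pairs, 36 joined the untreated libraries, 35 joined the dTAG13 libraries and 110 joined 1 library of each group. The 27 positions in 3 libraries were split into 14 that both untreated libraries listed and 13 that both dTAG13 libraries listed. Most recurring levels lay close to the listing limit: the mean level was under 20% at 19 of the 27 positions in 3 libraries and at 5 of the 9 in all 4. Positions are given below as the tables list them, in 1-based numbering on a build that the headers do not name; the submitters' processing notes name mm10, but 0 of the 1672 positions fell inside the RefSeq GRCm38 interval of their gene. Exon, UTR and sequence context were therefore not assigned.

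Hnrnpa1 (chromosome 15, plus strand) encodes a shuttling A/B-type hnRNP best known as a repressor of exon inclusion. It was listed with 26 and 14 sites in the untreated and 16 and 25 in the dTAG13 libraries, 67 positions in all, of which 3 recurred in all 4 libraries. The highest of these without dTAG13 was position 103152844, at 49.1% of 4338 reads and 54.9% of 6104 reads in the untreated libraries, and at 13.5% of 2783 and 12.8% of 4572 reads with dTAG13. Both untreated libraries stood far above both dTAG13 libraries. The means were 52.0% ± 4.07 and 13.1% ± 0.47 (SD, n = 2 each), a difference of −38.9 percentage points. The Wilson 95% interval of untreated library 1 ran from 47.7% to 50.6% and that of dTAG13 library 1 from 12.3% to 14.8%; such intervals cover counting error only, as reads are not known to be separate molecules.

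The next Hnrnpa1 position, 226 nt further 3′ at 103153070, stayed within a narrow range. Its untreated levels of 19.6% and 15.4% compare with 15.8% and 15.6% after dTAG13, from 2975 to 4430 reads, and the groups overlapped. The third, 103152197, was listed at 11.0% and 10.3% without and at 47.8% and 12.8% with dTAG13, from 232 to 666 reads. Both dTAG13 libraries stood above both untreated ones, and the change did not pass the test (quasi-binomial model over all sites, adjusted p = 0.877). Only dTAG13 library 1 stood far apart there. The same library listed 2 more positions within 10 nt, 103152201 at 21.1% of 166 reads and 103152205 at 35.6% of 59 reads. Untreated library 1 listed 103152205 too, at 21.3% of 207 reads, and 103152206 at 12.3% of 204 reads. Without dTAG13 library 1 the change at 103152197 was 2.07 percentage points in place of 19.6. The 5 Hnrnpa1 positions in 2 libraries each joined 1 untreated and 1 dTAG13 library, and none was confined to a group.

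Among the 2493 positions listed in all 4 libraries, those nearest to Hnrnpa1 103152844 in level were in Cox7a2l, Wdr6 and Tmed9. Cox7a2l position 83809721 (chromosome 17) was at 47.1% and 52.1% without and 13.5% and 11.5% with dTAG13, a mean absolute difference of 1.55 percentage points over the 4 libraries. The distances for Wdr6 108452819 (chromosome 9) and Tmed9 55745003 (chromosome 13) were 2.32 and 3.50 percentage points.

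Reads of processed Hnrnpa1 copies were looked for by name, since how reads with several matches were placed is not given in the sources used here. The tables name 2 such copies, Hnrnpa1l2-ps (chromosome 13) and Hnrnpa1l2-ps2 (chromosome 15), the latter protein-coding in RefSeq despite its name. The gene coverage of Hnrnpa1l2-ps, 54.8 to 107.8, was 1.82% to 3.78% of that of Hnrnpa1 in the same library, and that of Hnrnpa1l2-ps2, where listed, 1.25% to 2.88%. Hnrnpa1l2-ps position 75013651 was listed at 32.5% and 29.1% without dTAG13 and at 42.8% in dTAG13 library 1. Position 75013648, listed by the same libraries, was at 12.5% and 12.3% without dTAG13 and 11.6% in dTAG13 library 1. Hnrnpa1l2-ps2 position 22714224 was at 86.3% and 69.3% without dTAG13 and 27.7% in dTAG13 library 2, from 51 to 94 reads. Copies under other gene names could not be told from unrelated genes here, and the part of such reads in the levels of Hnrnpa1 and the other members was not tested.

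Hnrnpa0 (chromosome 13, minus strand), a family member that binds AU-rich elements of inflammatory mRNAs, held the member position with the highest mean level over both untreated libraries. Position 58274850 was at 82.2% of 2182 reads and 76.7% of 3391 reads in the untreated libraries (79.5% ± 3.85, SD, n = 2) and was listed in neither dTAG13 library. The nearest listed positions there lay 24 nt away with 709 reads in dTAG13 library 1 and 62 nt away with 3217 reads in dTAG13 library 2, so the surroundings were read in both. Position 58276024, which falls outside the naming rule and was chosen after its values were seen, showed such a pattern at 69.1% and 67.9% without dTAG13. Lower positions listed only without dTAG13 were 58274210 at 19.6% and 13.8% and 58274371 at 13.9% and 11.9%. So were, also outside the rule and added after their values were seen, 58274105 at 29.2% and 27.1% and 58276034 at 17.7% and 14.6%.

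Not all Hnrnpa0 positions went this way. Position 58275025 was listed only with dTAG13, at 30.0% of 2817 and 21.3% of 4422 reads, and 58275952 likewise at 18.0% and 10.7%. Position 58276145 was at 16.3% and 10.8% without dTAG13 and 25.0% in dTAG13 library 1, and 58276344 at 12.7% and 13.4% without and 18.0% in dTAG13 library 2. Of the 63 Hnrnpa0 positions, 6 were listed in both untreated libraries alone and 2 in both dTAG13 libraries alone.

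**Figure D2:**
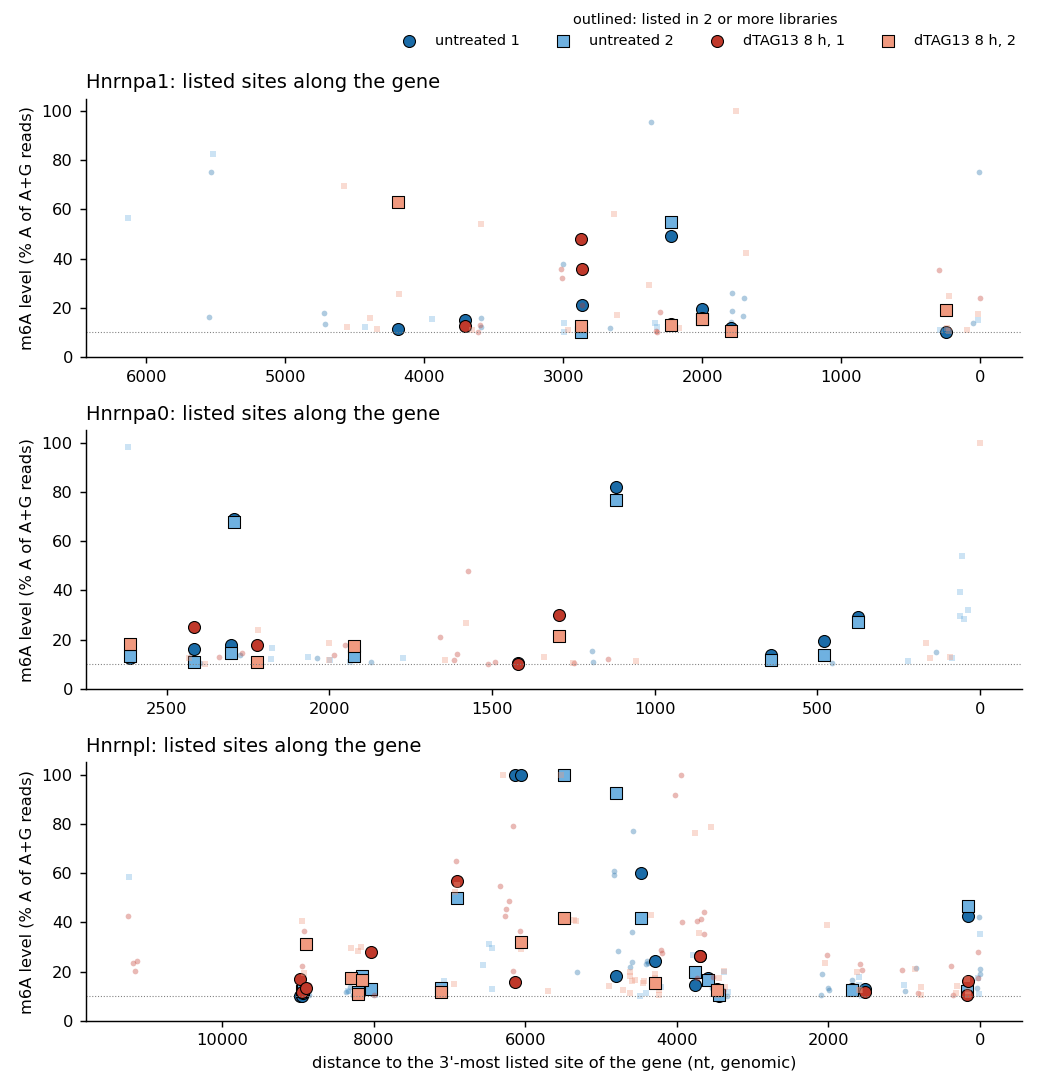
Level of every listed position (vertical axis, % A of A and G reads) against its genomic distance to the 3′-most listed position of the gene (horizontal axis, nt) for Hnrnpa1, Hnrnpa0 and Hnrnpl; blue is untreated, red dTAG13, outlined symbols recur in 2 or more libraries, and the dotted line is the 10% limit. In Hnrnpa1 the blue pair at 49.1% and 54.9% sits above the red pair near 13%, and in Hnrnpa0 the blue pair at 82.2% and 76.7% has no red counterpart.

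Hnrnpl (chromosome 7, plus strand) encodes a splicing regulator that binds CA repeats. Close to the 3′ end of its listed span, position 28521523 was at 42.6% of 3534 and 46.6% of 4222 reads without dTAG13 and at 16.3% of 851 reads in dTAG13 library 1. It was not listed in dTAG13 library 2, where a position 8 nt away was listed with 950 reads. Position 28521506, 17 nt upstream of it, was at 12.0% in both untreated libraries and 10.7% in dTAG13 library 1. Further 5′, 28512723 was at 10.3%, 12.2% and, in dTAG13 library 1, 11.7%, and 28514555 at 11.5%, 13.4% and, in dTAG13 library 2, 11.9%.

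Hnrnpl had 7 positions in both untreated libraries alone and 3 in both dTAG13 libraries alone. Of the former, those with the most reads were 28518232 at 10.0% and 10.6%, 28512742 at 11.3% and 12.9%, and 28518090 at 17.6% and 16.4%. The latter were 28518204 at 13.0% and 12.6%, 28513374 at 17.4% and 17.3%, and 28512780 at 13.5% and 31.2%. All but the last of these 6 kept within 10 percentage points of the listing limit. The other 4 positions of the untreated pair, added after their values were seen, had fewer reads: 28517907 was at 14.4% and 19.7% and 28519982 at 12.8% and 12.4%, whereas 28516870 was at 18.3% and 92.7% and 28517199 at 60.0% and 41.8%, from 41 to 235 reads.

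Hnrnpa3 (chromosome 2, plus strand), an A/B-type relative linked to mRNA transport, had 277 listed positions, 11 of which recurred in 3 or 4 libraries. Position 75492276 was in all 4, at 17.1% and 18.9% without and 13.4% and 35.2% with dTAG13 from 97 to 243 reads, and its groups overlapped. A pair of positions 52 nt apart differed in opposite directions: 75497934 was at 86.6% and 62.4% without dTAG13 and 33.3% in dTAG13 library 1, whereas 75497986 was at 23.3% in untreated library 2 and at 76.6% and 57.4% with dTAG13. These rested on 47 to 217 reads, and neither could be tested as each lacked a library.

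The other 8 Hnrnpa3 positions in 3 libraries differed less between the groups. Position 75498605 was at 40.2% in untreated library 1 and 27.7% and 37.7% with dTAG13, and 75498704 at 34.1% in untreated library 2 and 38.9% and 25.4% with dTAG13. Position 75496862 was at 20.1% in untreated library 1 and 27.8% and 12.0% with dTAG13, and 75496402 at 13.4% against 20.3% and 13.4%. The levels at 75493947, 75497025, 75497289 and 75497561 lay between 10.2% and 16.8% in every library that listed them. Hnrnpa3 had 11 positions in both dTAG13 libraries alone and 4 in both untreated alone. Of the dTAG13 pairs, the most reads were at 75492038 (11.5% and 10.3%), 75492032 (10.5% and 17.9%) and 75499111 (14.0% and 47.4%). Of the untreated pairs, they were at 75497392 (16.4% and 26.3%), 75497888 (23.1% and 16.6%) and 75496078 (13.8% and 21.7%).

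In 2 cases adjacent A positions were listed by opposite groups. In Hnrnpa3, 75497271 was listed in both untreated libraries at 14.5% and 15.1%, and the adjacent 75497270 in both dTAG13 libraries at 27.1% and 29.5%. In Hnrnpu, 178153340 was listed in both untreated libraries at 18.6% and 12.2%, and the adjacent 178153341 in both dTAG13 libraries at 28.6% and 13.0%. These adjacent pairs fall outside the naming rule in part and were chosen after their values were seen.

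Hnrnpa2b1 (chromosome 6, minus strand), which encodes an RNA transport factor and proposed m6A reader, had 189 listed positions and none in all 4 libraries. Its 5 positions in 3 libraries stayed low: 51438213 was at 12.8% in untreated library 1 and 12.9% and 12.4% with dTAG13, and 51439498 at 17.1% in untreated library 2 and 15.5% and 15.9% with dTAG13. Levels at 51438998, 51444006 and 51447430 lay between 10.1% and 14.5%. Of positions confined to a group, 51440215 (17.1% and 14.1%), 51443561 (16.7% and 10.0%) and 51439458 (19.6% in both) were listed only without dTAG13. Those listed only with it included 51439014 (24.8% and 10.8%), 51438902 (23.5% and 30.1%) and 51444265 (31.6% and 20.2%).

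Hnrnpab (chromosome 11, minus strand), an A/B-type protein of RNA transport and transcription, had 1 deeply read position in all 4 libraries. Position 51491359 was at 19.4% of 4962 and 17.8% of 4977 reads in the untreated libraries, against 20.4% of 1654 and 21.7% of 2027 reads with it. Both dTAG13 libraries stood above both untreated ones, by 2.48 percentage points on average, and the change did not pass the test (quasi-binomial model over all sites, adjusted p = 0.602). Position 51497550, near the 5′ end of the listed span, was at 13.0% in untreated library 2 and 14.0% and 11.9% with dTAG13. The positions in both dTAG13 libraries alone that held the most reads were 51491382 (12.5% and 10.5%), 51491287 (29.4% and 15.7%) and 51492603 (10.5% and 14.0%), and those in both untreated alone were 51496427 (10.0% and 10.8%) and 51491094 (16.6% and 28.0%).

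Hnrnpd (chromosome 5, minus strand), or AUF1, binds AU-rich elements and acts in mRNA decay. Position 100108961 was at 20.6% of 5149 and 13.4% of 5492 reads in the untreated libraries, against 15.9% of 1864 and 18.0% of 4080 reads with it. The untreated libraries differed more from each other than the groups did, whose means were both 17.0%. Position 100126476, near the 5′ end of the listed span, was at 18.6% in untreated library 2 and 24.8% and 18.5% with dTAG13, and 100112584 at 22.6%, 12.4% and, in dTAG13 library 1, 36.8% of 19 reads. Positions 100115091 (15.4% and 17.2%) and 100109319 (35.6% and 15.2%) were listed in both untreated libraries alone, and none in both dTAG13 libraries alone.

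Hnrnpk (chromosome 13, minus strand), whose KH domains bind C-rich RNA and DNA, had 2 deeply read positions in all 4 libraries. Position 58539934 had untreated levels of 25.2% and 27.9% against 27.8% and 26.9% after dTAG13, from 1420 to 2409 reads (26.6% ± 1.87 against 27.4% ± 0.66, SD, n = 2 each). Position 58539703 was at 14.6% and 17.6% without and 15.7% and 14.0% with dTAG13, from 4847 to 7804 reads. The groups overlapped at both. Position 58550221 was at 13.1%, 12.9% and, in dTAG13 library 1, 12.6%. The untreated pair listed 58539465 (23.4% and 14.1%) and 58539579 (19.0% and 14.5%) alone, and the dTAG13 pair 58541929 (15.8% and 11.3%).

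Hnrnpc (chromosome 14, minus strand), the U-tract binder whose access m6A can change, had 135 listed positions and none in all 4 libraries. Position 52311461 was at 15.8%, 12.0% and, in dTAG13 library 1, 24.3% of 74 reads, and 52335983 at 50.0% in untreated library 1 and 18.6% and 47.7% with dTAG13. At 52335983 the libraries of the dTAG13 group differed from each other by more than the second of them did from untreated library 1. The 3 positions in both untreated libraries alone were 52311935 (14.1% and 11.4%), 52312096 (17.8% and 19.7%) and 52311122 (18.3% and 12.6%). None was listed in both dTAG13 libraries alone.

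Hnrnpu (chromosome 1, minus strand), the scaffold attachment factor that binds chromatin-associated RNA, had the most listed positions, 430, of which 388 were in 1 library only. Position 178156568 was in all 4 libraries, at 17.0% and 13.4% without and 16.9% and 11.1% with dTAG13 from 764 to 1689 reads, and the groups overlapped. The untreated pair alone listed 7 positions, of which 178158977 (13.1% and 10.2%), 178163621 (27.8% and 20.0%) and 178154010 (35.6% and 36.1%) held the most reads. The dTAG13 pair alone listed 10, and those with the most reads were 178156880 (14.5% and 15.6%), 178163487 (34.9% and 35.2%) and 178160615 (37.9% and 26.7%).

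**Figure D3:**
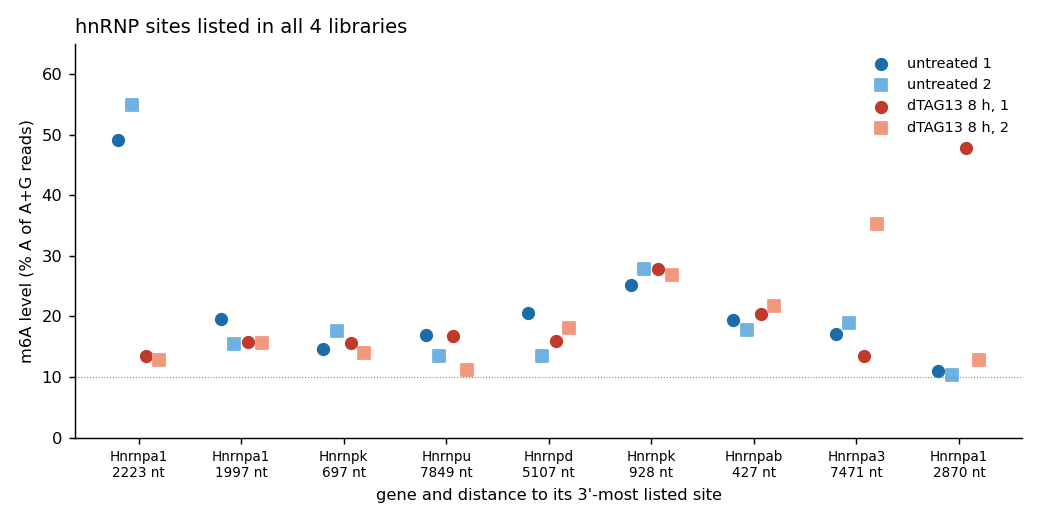
Level (vertical axis, % A of A and G reads) of the 9 hnRNP positions listed in all 4 libraries, ordered by their mean change and named by gene and genomic distance to its 3′-most listed position; blue is untreated, red dTAG13, and the dotted line is the 10% limit. Hnrnpa1 103152844 (2223 nt) is at 49.1% and 54.9% in blue and 13.5% and 12.8% in red, and in Hnrnpa3 (7471 nt) and Hnrnpa1 (2870 nt) 1 dTAG13 library stands far above the other 3 libraries.

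All 9 positions had at least 20 reads in every library and entered the site test, a quasi-binomial model fitted to 2321 positions of the series with Benjamini-Hochberg adjustment. Of these 2321, 2.28% passed the threshold of 0.05, with 2.20% lower and 0.0862% higher with dTAG13. Of the 9 member positions 1 was past it, the Hnrnpa1 position whose level chose the gene, so that count is no evidence and nothing is read from it. With any 1 library left out, 0 of the 2321 positions passed. Only positions listed in every library entered the site test, so no tested level could fall below the listing limit with dTAG13. Positions that dropped out of the dTAG13 lists, such as Hnrnpa0 58274850, could not enter, and their change was not tested. Outside Hnrnpa1, 0 of 6 of the positions that stayed listed passed. Their changes ran from −1.27 points at Hnrnpk 58539703 to 6.29 points at Hnrnpa3 75492276. Their adjusted p ran from 0.602 to 0.997 in the quasi-binomial model. Both dTAG13 libraries were above both untreated ones at 1 of these 6, Hnrnpab 51491359, and below at none, against 17.8% and 19.4% of all tested positions. Of the 20 other hnRNP-type genes, 5 positions were tested and 0 passed.

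Of the 59 hnRNP positions in both untreated libraries, 36 (61.0%) were in neither dTAG13 library, and of the 57 in both dTAG13 libraries, 35 (61.4%) were in neither untreated library. For all genes these shares were 80.0% and 68.8%. Of 56 hnRNP positions listed by both untreated libraries with at least 50 reads, 33 (58.9%) were listed in neither dTAG13 library, 14 in 1 and 9 in both, against 77.5% in neither for all genes. Most of the 56 had low levels: 50 averaged under 40%, of which 30 (60.0%, against 75.8% of all genes) were in neither dTAG13 library. Of the 6 at 40% or more, 3 were in neither, against 82.3% of all genes. The other 3 stayed listed, 2 in 1 dTAG13 library and 1 in both, each at a lower level than without dTAG13. The 1 in both was Hnrnpa1 103152844, whose level chose the gene, so nothing is read from this count. The difference between the hnRNP genes and all genes was not tested.

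Recovery was also computed from single-library lists. Of 414 hnRNP positions with at least 50 reads in untreated library 1, untreated library 2 listed 14.0% (Wilson 95% interval 11.0% to 17.7%), dTAG13 library 1 13.3% (10.4% to 16.9%) and dTAG13 library 2 11.1% (8.43% to 14.5%). With untreated library 2 as reference (406 positions) the shares were 14.0%, 12.3% and 10.3%. These intervals leave out the spread between genes and between libraries. Recovery with dTAG13 was 0.839 times that between untreated libraries, against 0.558 for all genes. The positions of all genes were not matched to the hnRNP positions in reads or level, and the difference was not tested.

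The recurring hnRNP positions were set apart from single ones by reads more than by level. The median reads per position and library were 190 for positions in 1 library, 224 for those in 2 and 539 for those in 3 or 4, and the median levels 17.3%, 16.7% and 15.6%. For all genes the medians were 90, 139 and 205 reads and 29.7%, 23.3% and 19.3%. Another listed position of the same library lay within 10 nt for 37.8%, 38.7% and 25.6% of the hnRNP values, and for 29.8%, 32.9% and 32.8% over all genes. In each class the hnRNP values had the higher median reads and the lower median level.

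Gene coverage, a value per gene and library that the authors deposited, with its unit and any scaling to depth not stated, was lower in both dTAG13 libraries than in both untreated ones for 10 of 10 hnRNP genes, against 28.1% of the 12520 genes; with coverage centred on the median gene it was again 10 of 10, against 29.2%. Among the 1849 genes with a mean coverage of at least 250, to which all 10 belong, the share was 56.2%, and after centring on those genes 6 of the 10 members were still lower, against 30.4%. In bulk RNA, fewer cells of a type and less RNA per cell cannot be told apart. Whether the coverage value is scaled to gene length is not stated, so genes are compared only with themselves.

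Hnrnpl showed the lowest ratio among the members: 955.3 and 1100.7 in the untreated libraries against 325.2 and 394.1 with dTAG13. Its mean coverage with dTAG13 was 0.350 times that without. On the log2 scale, centred on the median gene, its change was −1.44 (SE 0.20), the 16th lowest of 12520 genes, and it did not pass the test (limma, adjusted p = 0.363). Where only genes of mean coverage 250 or more were fitted, a choice made after seeing the data, the centred change was −1.13 and it passed (limma, adjusted p = 0.0371), as did 13 of 1849 genes.

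For Hnrnpab the coverage was 1880.5 and 1968.1 against 866.2 and 1245.2, a centred log2 change of −0.81 (SE 0.20). Hnrnpc stood at 616.6 and 710.6 against 333.3 and 463.3, a change of −0.67 (SE 0.20). Neither passed (limma, adjusted p = 0.363 for both). The changes of Hnrnpa0, Hnrnpa2b1, Hnrnpa3, Hnrnpd, Hnrnpk and Hnrnpu lay between −0.33 and −0.48, with limma adjusted p from 0.393 to 0.515. Hnrnpa1 stood at 3518.0 and 3820.8 against 2078.9 and 2848.0 after dTAG13, a ratio of the means of 0.671.

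The median centred change was −0.48 over the 10 members, −0.50 over the 20 other hnRNP-type genes, of which 19 were below 0, and −0.07 over all genes. These lists were not matched for coverage. Where only genes of mean coverage 250 or more were fitted, a choice made after seeing the data, the medians were closer. They were −0.17 over the 10 members and −0.03 over all genes fitted. In limma 0 of 12520 genes passed the adjusted threshold, while 12.7% had an unadjusted p under 0.05. Without centring 15 genes (0.120%) passed, and 0 of the members. The median log2 change before centring was −0.56 over the members, −0.15 over all genes and −0.42 over those of coverage 250 or more. Coverage was lowest in dTAG13 library 1 for each member, the library with the fewest listed positions of the series.

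**Figure D4:**
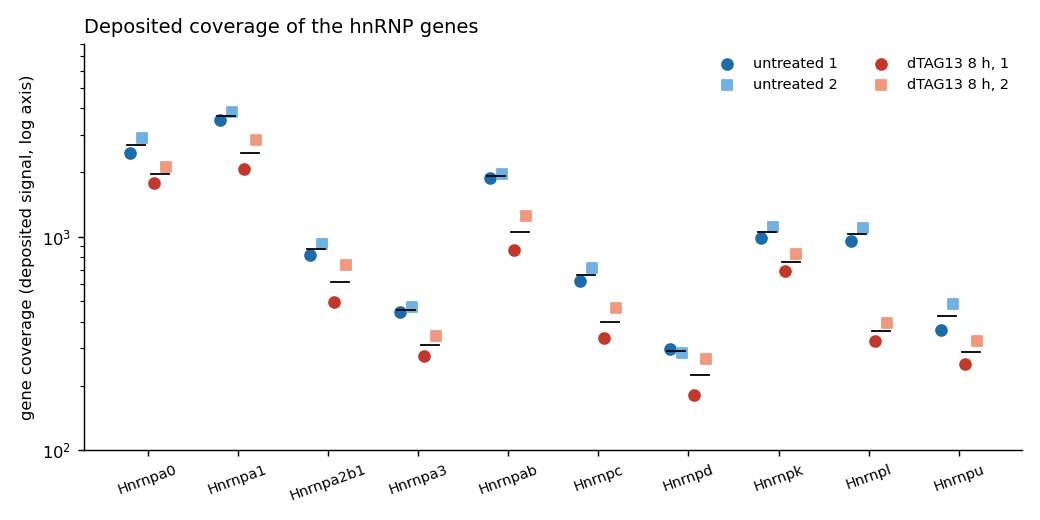
Deposited gene coverage (vertical axis, log scale, unit and scaling not stated) of the 10 hnRNP genes in the 2 untreated (blue) and 2 dTAG13 libraries (red), with group means as lines. Both dTAG13 libraries lie below both untreated ones in each gene, with 955.3 and 1100.7 against 325.2 and 394.1 in Hnrnpl and 298.1 and 285.4 against 181.1 and 267.3 in Hnrnpd.

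The conversion rate of a gene, the percentage of its A read as G, falls where more A stays unconverted, whether methylated or not. It was higher in both dTAG13 libraries than in both untreated ones for Hnrnpa0, Hnrnpa1, Hnrnpk and Hnrnpl, 4 of 10 members, against 40.9% of all genes, so the members' share is that of the series. The largest difference was in Hnrnpa0, from 94.9% and 95.5% to 96.9% and 97.2%, a log2 odds change of 0.72 (SE 0.27; limma, adjusted p = 0.398). Hnrnpl went from 96.1% and 95.8% to 97.3% and 96.6%, and Hnrnpk from 97.2% and 97.1% to 97.6% and 97.5%. For Hnrnpa1 the rate was 97.4% and 97.5% without and 97.8% in both libraries with dTAG13.

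At the other end, Hnrnpa2b1 was at 97.6% in all 4 libraries, and the rates of Hnrnpa3, Hnrnpab, Hnrnpc, Hnrnpd and Hnrnpu overlapped between groups. In limma 0 of 12520 genes passed the adjusted threshold and 12.3% had an unadjusted p under 0.05. The median log2 odds change was 0.20 over the members, 0.28 over the other hnRNP-type genes and 0.30 over all genes. The unconverted share of the members lay between 1.93% and 5.06%. It is a value for the whole gene, methylated A included. Whether unmethylated A at single positions reached the 10% listing limit cannot be read from it.

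**Figure D5:**
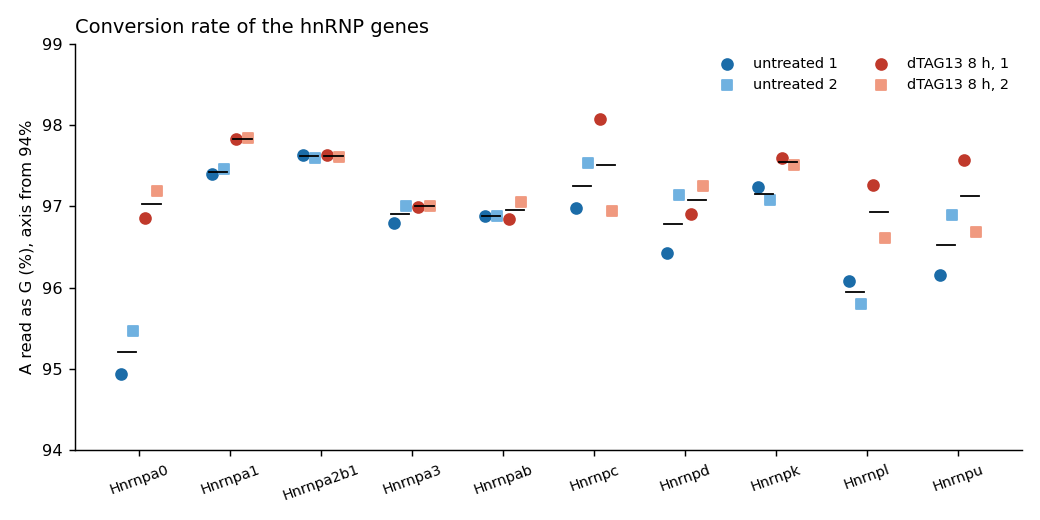
Conversion rate (vertical axis, % of A read as G, drawn from 94%) of the 10 hnRNP genes in the 2 untreated (blue) and 2 dTAG13 libraries (red), with group means as lines. Hnrnpa0 is at 94.9% and 95.5% in blue and 96.9% and 97.2% in red, while Hnrnpa2b1 is at 97.6% in both.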

How the data were processed

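The authors deposited 1 table per library with, for each listed position, the counts of A and G reads and of A reads, the A fraction (not corrected for incomplete conversion), the conversion fraction of the gene, a coverage signal of the gene and a p-value with its adjusted value, per the file headers. The deposited p-values served only for a stricter listing. Replicates were not pooled. The submitters' processing notes name mm10; the aligner, the caller and duplicate removal are not given in the sources used here.

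The members and all gene lists were chosen with earlier results of these data known. Member positions named by rule were those in 3 or 4 libraries and, of those in both libraries of 1 group alone, up to 3 per gene with the most reads. Of the positions in 1 library only, at most the 1 with the most reads per gene was named by rule. The positions within 10 nt of Hnrnpa1 103152197, and those marked above as added or outside the rule, were named besides. Levels were tested at positions with at least 20 reads in all 4 libraries with a quasi-binomial model whose dispersion was moderated in limma 3.58.1 (R 4.3.3). Gene coverage (log2, centred on the median gene) and conversion rate (log2 odds) were tested with limma, and p-values adjusted over all features by Benjamini-Hochberg. Scripts were tested on simulated data. Libraries of equal replicate number shared almost no deviation (correlation 0.0193 for levels, 0.00227 for coverage, 0.00829 for conversion). This cannot show whether they were paired by culture or batch. Alternatives were another test, a replicate block, read and level minimums, centring, and leaving out each library; a coverage minimum of 250 was added after seeing the data. No sequences are shown, as no genome of the tables' build was used here.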

Additional observations from a re-analysis of the deposited data

How the results depend on the processing

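The ratio of listed hnRNP sites, 1.07, stayed above 1 in each alternative, from 1.05 to 1.09 when 1 library was left out. Recovery with dTAG13 relative to that between untreated libraries was 0.669 for levels of at least 40%, against 0.839. The number of hnRNP positions past the threshold, 1, became 5 with Fisher's exact test on summed reads, which leaves out the spread between libraries, and 0 with a replicate block; it ranged from 0 to 0 without 1 library, where the lone library is assumed to vary like the other group. Over all 2321 positions Fisher's test called 531, and the block and the fits without 1 library 0. The 1 position is Hnrnpa1 103152844, whose level chose the gene. Its change without 1 library ranged from −41.8 to −36.0 percentage points, and no support is drawn from it. The replicate block changed no call of gene coverage or conversion rate. The fitted coverage change was below 0 for 10 of 10 members under each alternative, and 1 member passed among genes of coverage 250 or more, chosen after seeing the data. Conversion rate changes turned negative when centred on the median gene: −0.066 for Hnrnpa1, −0.32 for Hnrnpa2b1, −0.27 for Hnrnpa3, −0.29 for Hnrnpab, −0.15 for Hnrnpc, −0.19 for Hnrnpd, −0.10 for Hnrnpk and −0.028 for Hnrnpu, as the median gene itself rose. Without 1 library the conversion change ranged from −0.0090 to 0.014 for Hnrnpa2b1, −0.0045 to 0.10 for Hnrnpa3, −0.015 to 0.083 for Hnrnpab, −0.17 to 0.52 for Hnrnpc and −0.033 to 0.30 for Hnrnpd. Site changes without 1 library ranged from −3.88 to 0.28 points at Hnrnpa1 103153070, −4.61 to 17.2 at Hnrnpa3 75492276, −3.64 to 3.57 at Hnrnpd 100108961, −2.78 to 0.25 at Hnrnpk 58539703, −0.54 to 2.11 at Hnrnpk 58539934 and −4.08 to 1.66 at Hnrnpu 178156568; the cause of these reversals was not tested. Of 260 alternatives for single genes or positions, 228 kept both direction and side of the threshold. With 2 libraries a group, the smallest exact permutation p is 0.333.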

Other observations

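Positions listed in 1 library only included some of the most deeply read ones. Hnrnpa0 position 58275070 was listed at 12.8% of 10324 reads in dTAG13 library 2 alone, Hnrnpab 51490987 at 15.4% of 4559 reads in untreated library 1 alone, and Hnrnpu 178156707 at 10.1% of 3745 reads in the same library. Among the other hnRNP-type genes, Hnrnpm 33869045 (chromosome 17) had a mean change of −6.28 points with both dTAG13 libraries below both untreated ones and did not pass the test (quasi-binomial model, adjusted p = 0.440). Syncrip 88334054 (chromosome 9) had a mean change of 4.43 points the other way (adjusted p = 0.837).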
